A study of Mus musculus with 2 samples.

Results

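Probe sets whose annotation lists more than 1 gene symbol were described in mouse hearts 3 days after myocardial infarction. A probe set is the group of short array probes that gives 1 expression value. Where its probes match several transcripts, that value is a mixture, and the genes listed together cannot be told apart. Members were chosen by the annotation and by the measured level: at least 2 listed symbols, no array controls, and a log2 value at or above the median of the array in the sham or the infarct pool. They are ordered below by the same 2 values, so the differences given for them are descriptions. Of 45101 probe sets, 932 listed several symbols and 576 of these were bright enough. A further 20492 bright probe sets listed 1 symbol. Both groups were C57BL/6J males, 10 weeks old at surgery. In the infarct group the left anterior descending coronary artery was tied off for good, and the sham group had the operation without the tie. Hearts of 3 mice were mixed per group and 1 array was run per pool, so no test was possible and every difference below is 1 infarct pool minus 1 sham pool on the log2 scale, with no spread between mice. The tissue is the heart as a whole. In such bulk samples, fewer cells of a type and less RNA per cell cannot be told apart.

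Genes come to share a probe set in several ways. Gene duplication leaves neighbouring copies that differ at few bases, as in receptor families of leukocytes. Reverse transcription of mRNA scatters processed pseudogenes over the genome, most of all for highly expressed housekeeping genes such as those of ribosomal proteins. Small RNA genes lie inside longer host transcripts, and adjacent genes can be joined by read-through or overlap at their ends. Arrays of replication-dependent histone genes, which supply the histones of dividing cells, encode nearly the same protein many times over.

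Promoters of genes on the highest and the lowest member and on the highest histone probe set are shown, as given by RefSeq on GRCm38.p6, from 250 bases before to 50 after the gene start, 5′ to 3′ on the gene's strand. For 555 of the 916 symbols listed on members such a promoter was given. The first pair belongs to the probe set with the highest difference. The promoters of Chil3 (chr3:106167515-106167814, minus strand) and Chil4 (chr3:106219430-106219729, minus strand) were identical at 76.6% of aligned positions, and capitals mark bases that differ from, or have no counterpart in, the other promoter.
Chil3: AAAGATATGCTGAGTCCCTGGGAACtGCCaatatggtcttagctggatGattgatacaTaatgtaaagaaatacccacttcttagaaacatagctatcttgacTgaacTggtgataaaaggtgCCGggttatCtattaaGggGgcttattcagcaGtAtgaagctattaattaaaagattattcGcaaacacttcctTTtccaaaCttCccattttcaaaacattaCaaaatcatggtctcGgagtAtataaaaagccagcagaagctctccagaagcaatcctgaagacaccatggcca
Chil4: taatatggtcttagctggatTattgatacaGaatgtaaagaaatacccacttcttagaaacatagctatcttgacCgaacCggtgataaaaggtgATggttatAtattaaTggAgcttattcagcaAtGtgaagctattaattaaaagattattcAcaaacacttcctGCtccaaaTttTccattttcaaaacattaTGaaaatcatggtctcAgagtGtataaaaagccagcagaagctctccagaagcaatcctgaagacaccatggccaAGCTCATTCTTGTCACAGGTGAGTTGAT

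The second pair comes from the histone probe sets with the highest and the lowest difference. H2ac4 (chr13:23750838-23751137, plus strand) is 1 of 10 H2A genes of the fourth highest member, and H4c12 (chr13:21750504-21750803, minus strand) is 1 of 13 H4 genes of the lowest member. Capitals mark TATAAA and CCAAT, searched on both strands (the reverse complement of CCAAT reads ATTGG); these motifs do not overlap in either promoter.
H2ac4: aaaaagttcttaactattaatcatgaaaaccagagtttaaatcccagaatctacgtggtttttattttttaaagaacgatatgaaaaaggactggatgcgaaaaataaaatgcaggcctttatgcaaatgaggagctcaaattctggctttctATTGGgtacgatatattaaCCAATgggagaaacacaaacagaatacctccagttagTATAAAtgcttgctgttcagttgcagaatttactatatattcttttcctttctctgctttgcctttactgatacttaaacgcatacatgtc
H4c12: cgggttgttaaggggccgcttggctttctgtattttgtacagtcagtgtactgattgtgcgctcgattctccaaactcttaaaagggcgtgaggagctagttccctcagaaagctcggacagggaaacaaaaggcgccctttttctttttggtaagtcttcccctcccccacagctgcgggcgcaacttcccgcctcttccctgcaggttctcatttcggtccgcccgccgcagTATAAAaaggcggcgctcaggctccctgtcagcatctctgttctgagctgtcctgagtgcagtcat

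CCAAT was present in 10 of 10 promoters of the H2A genes, in 3 of 12 promoters found for the H4 genes and in 37.4% of the 32851 promoters of the table. TATAAA was present in 6 of 10, in 8 of 12 and in 13.6%. These matches describe letters in the window and no binding. Among listed pairs of 1 gene family, promoters were identical at a median of 52.0% of aligned positions (385 pairs, of which 90 reached 70%). Large families weigh most in this median, with 66 pairs among the H4 genes and 45 among the H2A genes of the fourth highest member. Listed pairs of named genes of unlike symbol had a median of 50.3% (62 pairs). Most family pairs were thus unlike in their promoters. Pairs with like promoters include Bcl2a1a and Bcl2a1d, at 94.1%, and Ctla2a and Ctla2b, at 79.5%.

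Mature microRNAs of the small RNA genes that share a probe set with their host transcript are shown with the seed, bases 2 to 8, in capitals. Of 10 microRNA genes listed, they belong to Mir214, Mir675 and Mir92-1, shown because their probe sets had the highest differences of those that list a microRNA, and no seed was shared among them. On GRCm38.p6 they lie at chr1:162223397-162223418 and chr1:162223438-162223459 (plus strand), chr7:142577112-142577133 and chr7:142577078-142577099 (minus strand) and chr14:115044437-115044459 and chr14:115044476-115044496 (plus strand). The array values belong to the probe sets of the longer transcripts and do not measure these mature forms.
mmu-miR-214-5p: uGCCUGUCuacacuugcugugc
mmu-miR-214-3p: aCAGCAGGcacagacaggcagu
mmu-miR-675-5p: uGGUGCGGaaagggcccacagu
mmu-miR-675-3p: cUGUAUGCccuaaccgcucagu
mmu-miR-92a-1-5p: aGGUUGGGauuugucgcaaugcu
mmu-miR-92a-3p: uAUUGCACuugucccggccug

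Across the 576 members, 25 (4.34%) were higher by 2-fold or more after infarction and 2 (0.347%) were lower by as much. Over all 23425 bright probe sets the shares were 3.37% higher and 1.2% lower. At a log2 difference of 1.4, 9 members were higher and 0 lower, against 1.25% and 0.252% of all. After centring on 11 housekeeping genes the split was 9 higher and 18 lower, and after centring on the hybridisation controls it was 67 and 0. The median difference of the members was 0.12, with 365 above 0, 208 below and 3 equal, against -0.0040 for single-symbol probe sets. Under the housekeeping centring the former fell to -0.24 and the latter to -0.37. The housekeeping genes were on average 0.37 higher after infarction and the hybridisation controls 0.32 lower, so smaller differences change sign with the zero chosen, and 17 of 25 family medians did so under at least 1 scaling. Of the 25 members that were higher by 2-fold, 4 read below the median of the sham array, so their size rests on a value with little signal. These 4 were kept only through their infarct values, so the brightness rule set their direction. With the median required on both arrays, 21 members were higher and 2 lower. Probe sets listing the same symbols disagreed with a pooled SD of 0.21 (114 sets of symbols), and those listing the same single symbol with 0.23. These SDs cover probes and not mice.

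Ribosomal proteins made up 93 of the members, and in a count added after the values were seen the other 483 had a median of 0.06. Median differences also increased with brightness. Among the dimmest 144 members by mean level the median was -0.0009, and among the brightest 144 it was 0.22, where 74 members were ribosomal and the other 70 had a median of 0.07. Members were brighter than single-symbol probe sets, with median mean levels of 9.45 and 8.14. In the brightest range the 1027 single-symbol probe sets had a median of -0.06. Probe set identifiers ending in _s_at or _x_at, which mark probes that can match several transcripts, were 15.8% and 18.2% of members and 7.10% and 6.65% of single-symbol probe sets. Identifiers ending in plain _at were 44.1% and 71.1%. Cross-matching probe sets were thus more frequent among the members, but many members carried no such mark.

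By kind of sharing, 316 members listed 1 named gene with gene models or pseudogenes (median 0.20), 136 listed several genes of 1 family (0.05), 90 listed named genes of unlike symbol (0.01), 23 listed only gene models (-0.13), and 11 listed a small RNA gene with another gene (0.47). All 3 positive medians below 0.37 turn negative under the housekeeping centring, and that of gene models turns positive under the hybridisation centring. Of the 316, 10 were 2-fold higher (3.16%), and of the 136, 9 were higher (6.62%) and 2 lower (1.47%). The other kinds held 3 higher of 90 (3.33%), 0 of 23 and 3 higher of 11. Among all bright probe sets 3.37% were higher and 1.2% lower. In 283 members the listed genes lay on different chromosomes, in 153 within 1 Mb of each other, in 63 they overlapped or abutted and in 39 they were further apart on 1 chromosome. Their median differences were 0.19, -0.04, 0.15 and -0.19.

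Several of the highest members list genes of leukocytes. The probe set of Chil4 and Chil3, chitinase-like proteins secreted by macrophages, read 5.93 (sham) and 9.09 (infarct), a difference of 3.16 (8.92-fold), with the sham value below the array median. It was kept only through its infarct value, so the brightness rule set its direction. The probe set that lists Chil3 alone read 6.30 and 9.97, a difference of 3.67. The probe set of Sirpb1c, Sirpb1b and Sirpb1a, signal regulatory protein receptors of myeloid cells, read 7.21 and 9.35, a difference of 2.14, and Sirpb1a alone read 5.82 and 7.30, a difference of 1.48. Both of these single-symbol probe sets were below the array median in the sham pool and were kept only through their infarct values, so they are no separate support for the direction. The probe set of Lilrb4a and Lilr4b, immunoglobulin-like receptors of leukocytes, read 10.33 and 11.82, a difference of 1.49. The receptors of this family held 3 members with a median of 1.49, against 0.53 over 15 single-symbol probe sets, and the third, shared by Pirb and Pira genes, read 7.48 and 8.47, a difference of 0.99. Bcl2a1d, Bcl2a1b and Bcl2a1a, BCL2 relatives that protect leukocytes from cell death, shared a probe set at 7.26 and 8.69, a difference of 1.43. Ctla2b and Ctla2a, inhibitors of cysteine proteases, shared one at 9.35 and 10.72, a difference of 1.36, and their own probe sets differed by 1.19 and 1.45.

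Markers of myeloid cells moved with these values. The 9 monocyte and macrophage markers were all above 0, with 5 at least 2-fold higher, and their mean log2 level went from 9.35 (sham) to 10.30 (infarct). Of 4 neutrophil markers on the array 3 were bright, all at least 2-fold higher, and the mean level of the 4 was 7.26 and 8.62. The 7 cardiomyocyte markers ranged from 13.01 to 14.85 (sham) and from 12.62 to 14.89 (infarct), among the brightest values of the arrays, so the labelled tissue carried its markers. The part of cell numbers in the myeloid probe sets was not tested.

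Other high members list genes of the extracellular matrix, of DNA synthesis and of other functions. Thbs1, the matricellular protein thrombospondin 1, shared a probe set with Pald1, which encodes the phosphatase-like protein paladin on another chromosome, at 9.39 and 11.50, a difference of 2.11. Probe sets listing Thbs1 alone differed by 1.90 and 1.96 and that of Pald1 by 0.17, so the shared value lay nearer to Thbs1. Loxl2, an enzyme that cross-links collagen, was listed with Gm21451 on probe sets that read 9.18 and 10.43 (1.25) and 7.65 and 8.81 (1.16). These values differed by less than the SD of 0.23 between probe sets of 1 gene. S100a11, a calcium-binding protein, was listed with its pseudogenes at 11.26 and 12.49, a difference of 1.23. Prnd, which encodes the prion-like protein doppel, was listed with Prn at 6.29 and 8.04, a difference of 1.75 from a dim sham value. Tyms, thymidylate synthase of the nucleotide supply for DNA, was listed with Tyms-ps at 7.05 and 8.69, a difference of 1.65. Tex52, Pebp1 and the cell cycle factor Foxm1 shared a probe set at 6.21 and 7.55, a difference of 1.34, but probe sets of Foxm1 and Pebp1 alone ranged from -0.25 to 0.89, none of them as high. The shared probe sets of Prnd and of Foxm1 were below the array median in the sham pool. They were kept only through their infarct values, so the brightness rule set their direction. The same holds for the probe set of Foxm1 alone at 0.89 (5.73 and 6.62).

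The remaining 2-fold members, named after their values were seen, included 4 genes each listed with a model or pseudogene. Ass1, an enzyme of arginine synthesis, read 6.88 and 8.02 (1.14), and Rbm3, a cold-inducible RNA-binding protein, 6.36 and 7.50 (1.14). Ftl1, the light chain of the iron store ferritin, read 11.18 and 12.25 (1.07), and Arpc1b, a subunit of the actin-branching Arp2/3 complex, 10.51 and 11.52 (1.01). A second probe set listing Arpc1b with Gm5637 differed by 0.25. Of these 4, Rbm3 alone read below the array median in the sham pool, so the brightness rule set its direction. Tnfrsf22 and Tnfrsf23, decoy receptors of the death ligand TRAIL, shared a probe set at 7.43 and 8.58 (1.14), while Tnfrsf22 alone differed by 0.56. Septin5 and Gp1bb, the latter a platelet receptor chain, shared one at 7.18 and 8.18 (1.00), while Gp1bb alone differed by -0.12. The probe set of Gp1bb alone (6.467 and 6.348) was kept only through its sham value, so the brightness rule set its direction.

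The tubulins, subunits of microtubules, had 5 members, all above 0, with a median of 1.10 and a range of 0.79 to 1.20. Tuba1c with Gm6682 read 8.23 and 9.42, and its second probe set 6.66 and 7.76. Tuba1b with Gm5620 read 13.18 and 14.07, a difference of 0.88. Over 24 single-symbol tubulin probe sets the median was 0.26. The heterogeneous nuclear ribonucleoproteins, which package and splice mRNA precursors, had a median of 0.43 over 7 members, with Hnrnpa3 from -0.16 to 0.99 on 4 probe sets. The probe sets of Hnrnpa1 with its models differed by 0.30 to 0.87, whereas those listing Hnrnpa1 alone differed by -0.09 and 0.12. Among cycling cell markers 4 of 4 bright ones were at least 2-fold higher, with mean levels of 6.91 and 9.14 in the sham and infarct pools. Bub1, at 4.95 and 7.39, was bright only through its infarct value, so its direction was set by the brightness rule. The part of cycling cells in the tubulin, Tyms and histone values was not tested.

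The histones, around which DNA is wrapped, included the fourth highest member and the lowest. The probe set of H2ac4, H2ac6, H2ac7 and 7 other H2A genes read 10.20 (sham) and 12.00 (infarct), a difference of 1.80. The H4 probe sets, which list the same 13 genes, went apart: 1 read 9.02 and 7.72 (-1.29), another 10.22 and 9.34 (-0.88), and the third 6.29 and 6.48 (0.19, dim in sham). The range of 1.49 among them was the largest of all 114 sets of symbols with repeated probe sets, whose median range was 0.20. The upper end of that range was the third H4 probe set, which was kept only through its infarct value. The brightness rule set the direction of this probe set. The second H2A cluster probe set, of H2ac19 and H2ac18, read 6.92 and 6.86 (-0.07), and probe sets of H2ac19 alone differed by -0.73 and -0.75. The H2A cluster probe sets therefore differed among themselves as well, and both brighter H4 probe sets were lower after infarction. The H2B cluster probe sets lay between -0.22 and -0.06 and the H3 cluster between 0 and 0.58. The H3 cluster probe sets at 0.58 (6.24 and 6.82) and 0.26 (6.11 and 6.37) were below the array median in the sham pool. They were kept only through their infarct values, so the brightness rule set their direction. The variant H2az1, which is made outside of DNA replication too, read 11.65 and 12.62 (0.97) and 9.24 and 10.11 (0.87). The H3f3 genes, which encode the replacement histone H3.3, ranged from -0.06 to 0.43 over 5 probe sets. Histone probe sets above the median in both pools ran from 1.80 (H2A) to -1.29 (H4). Within 1 family the shared probe sets therefore did not move as a block, and the median of the 20 was 0.08 (-0.29 after centring on housekeeping genes).

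Small RNA genes were listed on 11 members, 10 of them above 0, and were named after their values were seen. Dnm3os, a noncoding host transcript of Mir214 that runs opposite to the dynamin gene Dnm3, read 7.09 and 8.51 (1.41) and, on a second probe set, 6.46 and 7.78 (1.32). Gas5, a host of small nucleolar RNAs listed with Snord47, read 7.07 and 8.20, a difference of 1.13. Probe sets of Gas5 alone differed by less, from 0.57 to 0.96. The imprinted H19 with Mir675 read 9.72 and 10.52, a difference of 0.80. Mir17hg with Mir92-1 differed by 0.52, Snhg8 with Snora24 by 0.47, and Misp3 with Mir1199 by -0.49.

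The lowest members outside the histones list genes of metabolism and of other functions. Acot2 and Acot1, acyl-CoA thioesterases of fatty acid metabolism in mitochondria and cytosol, shared a probe set at 8.94 and 7.77, a difference of -1.17, and their own probe sets differed by -0.81 and -0.82 (Acot2) or read 8.35 and 6.85 (Acot1). Paqr9, a membrane receptor of the progestin and adipoQ family, was listed with C730029A08Rik at 9.96 and 9.02 (-0.94), against -1.11 and -0.80 alone. Mettl7a2 and Mettl7a1, methyltransferase-like proteins, read 9.64 and 8.80 (-0.85), and their own probe sets ranged from -0.86 to -0.71. For these 3 gene pairs the shared and the single-symbol probe sets lay on the same side of 0. The Acot2 probe set at -0.81 read 6.65 and 5.84 and was kept only through its sham value. It is therefore no separate support for the direction. Gcat, an enzyme of threonine breakdown, with Galr3 read 8.35 and 7.55 (-0.80), but a second probe set of these genes differed by 0.19. Klra9 and Klra3, receptors of natural killer cells, read 7.58 and 6.75 (-0.82). Chmp1b, a subunit of the membrane-cutting ESCRT-III complex, with 2610002M06Rik read 6.91 and 6.12 (-0.80). A second probe set of this pair differed by 0.40, and Chmp1b alone by -0.02 and -0.22. Probe sets of gene models alone read 8.33 and 7.48 (-0.85) and 6.81 and 5.95 (-0.86). The infarct values of 6.12 and 5.95 were below the array median. Both probe sets were kept only through their sham values, so the brightness rule set their direction.

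Respiratory chain genes had 8 members, all below 0, with a median of -0.38 and a range of -0.56 (Ndufb4 genes, 12.89 and 12.32) to -0.17 (Ndufa11 genes, 13.05 and 12.88). Over 171 single-symbol probe sets of this family the median was -0.32, with 162 below 0. The median of the members stayed below 0 under every scaling run. Of the 7 cardiomyocyte markers 1 was above 0, with a median of -0.13 and the lowest values for Ryr2 (-0.39) and Tnni3 (-0.38), and mean levels of 14.41 and 14.24 in the sham and infarct pools. The part of cardiomyocyte RNA in the respiratory chain values was not tested. Ribosomal proteins had 91 of 93 members above 0 and a median of 0.29, as did 98 single-symbol probe sets (0.29), and under the housekeeping centring 28 remained above 0. They ran from Rps27 with Rps27rt (13.02 and 12.96, -0.06) to Rpl3 with its models (5.78 and 6.78, 0.996). The Rpl3 probe set was below the array median in the sham pool and was kept only through its infarct value. Its direction was therefore set by the brightness rule.

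Shared probe sets of chemokines, which guide leukocytes, were mostly lower in the infarct pool. Ccl21 genes, whose product draws lymphocytes to lymphatic vessels, read 9.49 and 8.75 (-0.74), Ccl27 genes differed by -0.59 and -0.53, and Ccl19 with its copies by 0.12. The median of these 4 was -0.56, and that of 31 single-symbol chemokine probe sets 0.38. Immunoglobulin kappa genes had 3 members at -0.74, -0.59 and -0.13, a median of -0.59. Without the brightness rule 14 shared probe sets of immunoglobulin and T cell receptor genes had a median of -0.17, and 76 bright single-symbol probe sets of this family had one of -0.04. Lymphocyte markers were mostly dim, with 1 of 5 on the array bright (Cd3e, -0.04) and mean levels of 5.59 and 5.48, and their part in these values was not tested. Antigen-presenting genes of class I ran from -0.35 (H2-Q6 and H2-Q8) to 0.35 (H2-T9, H2-T22 and H2-T10). The class II genes H2-DMb and H2-Ob had 3 members, from 0.28 to 0.51 with a median of 0.32 (-0.04 after centring on housekeeping genes). Over 12 single-symbol probe sets the median was -0.04. An H2-DMb probe set (6.16 and 6.67) and that of H2-Ob (6.14 and 6.47) were below the array median in the sham pool. They were kept only through their infarct values, so their direction was set by the brightness rule. Globins differed by 0.08 to 0.20 and Ugt1a genes, which share their last exons, by 0.45 to 0.72. The interferon-inducible Ifi200 genes ranged from -0.33 to 0.33, and on the probe set that lists Ifi204 and Mndal (0.33), Ifi204 alone differed by 1.06 and Mndal alone by -0.16 and -0.09.

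Translation factors, which start and extend protein synthesis, lay between 0.09 (Eif3j genes, 11.15 and 11.24) and 0.54 (Eef1g with Gm29753), all 5 above 0 but with a median of 0.11. The 7 members grouped as ubiquitin and its conjugating enzymes had a median of 0.04, with Ube2l3 and its models from -0.14 to 0.30 over 4 probe sets. The 13 zinc finger members had a median of -0.07, close to -0.09 for 429 single-symbol probe sets, and the lowest was that of Zfp960 and Zfp97 (9.17 and 8.75, -0.41). Morf4l1 genes, of chromatin complexes, lay between -0.17 and 0.06 over 7 members and Sap18 genes between -0.15 and 0.08 over 5. Entpd4 genes, which encode an enzyme of nucleotide breakdown, were below 0 on all 3 probe sets (-0.40 to -0.28), and so were Mfap1 genes (-0.52 to -0.24).

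The cardiac myosin heavy chains, chosen after the values were seen, share probe sets although their own values lay on different sides of 0. Myh6 is the main heavy chain of the adult mouse ventricle and Myh7 that of the fetal ventricle. Probe sets shared by both read 14.64 and 14.36 (-0.28) and 12.35 and 11.84 (-0.51). Myh6 alone differed by -0.67 and -0.13, and Myh7 alone, at 9.94 and 10.89, by 0.95. The shared values lay within the range of Myh6 alone, whose brighter probe set (14.85 and 14.72) was near the highest value of the arrays (14.90 and 14.89). Myl6, a light chain of nonmuscle and smooth muscle myosin, with its models differed by 0.97 and 0.85, and alone by 0.30.

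Of the 576 members, 216 (37.5%) had at least 1 bright probe set listing 1 of the same named genes alone. The shared difference had the sign of the median of these in 150 (69.4%), the median absolute gap was 0.22, and 34 gaps exceeded 0.5. Across these members, which share the same 2 arrays and are not independent, Pearson's r was 0.74 and Spearman's rho 0.64. Among the 27 members at 2-fold, 9 had such probe sets, 8 with the same sign. These counts and correlations include single-symbol probe sets bright in only 1 pool, such as those of Chil3, Sirpb1a and Acot2 described above. The brightness rule set the sign of those probe sets. The widest gaps, beyond Foxm1 and Gp1bb above, were those of Litaf with Gm9861 (0.09, against 1.33 and 1.38 for Litaf alone), of Nemp1 with 1700012D01Rik (-0.72, against 0.40) and of Csf2rb2 and Csf2rb, the shared receptor chains of interleukin-3 and granulocyte-macrophage colony-stimulating factor (0.11, against 1.00 to 1.07). The probe sets of Nemp1 alone (6.02 and 6.42), of Csf2rb2 alone (5.97 and 7.03) and 1 of Csf2rb (6.13 and 7.13) were kept only through their infarct values. The brightness rule set their signs too, so these gaps rest in part on the rule. Another probe set of Csf2rb alone (7.37 and 8.44, a difference of 1.07) was above the median in both pools.

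At the edge of the brightness rule, Glb1l with Ankzf1 (6.25 and 6.36) and BC062258, whose symbol is listed 2 times (6.36 and 6.09), lay just inside, and Gbp8 with Gbp4 (6.33 and 6.30) and Trp53rka with Trp53rkb (6.32 and 6.28) just outside. The array medians were 6.36 and 6.35. In 3 members the annotation repeats 1 symbol, and the rule counts them as listed. Of the 356 multi-symbol probe sets that were too dim, 2 were at least 2-fold higher and 1 lower.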

How the data were processed

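Total RNA of whole hearts (ISOGEN, RNeasy) was pooled from 3 mice per group and hybridised to a GeneChip (Mouse Genome 430 2.0), 1 for each pool. The deposited values are RMA log2 values per the labels; the authors corrected background, normalized the arrays and summarised probes. The version of RMA was not given in the sources used here, and normalization hides a difference in total mRNA. Medians were 6.36 and 6.35 in the sham and infarct pools. Symbols came from the platform annotation: 1484 of 1551 listed genes matched RefSeq (GRCm38.p6) by Entrez identifier, and no coordinates go with the values. Families were defined by symbol patterns, else by 3 shared letters. The naming rule covered the 15 highest and 10 lowest members, the extremes of families with at least 3 members and those at the brightness edge. Some family extremes under this rule are not described above, among them those of ribonucleases, Srp54 genes and protein phosphatases. Members and lists were chosen with earlier results of these data known. Promoter pairs were aligned globally with Biopython 1.88. Alternatives changed the scaling, the filter, the members and the threshold, and leaving out ribosomal proteins was added after seeing the data. Python 3.11.15 and pandas 2.3.3 were used. With 1 array per group no sample could be left out, and precision is limited by the number of arrays.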

Additional observations from a re-analysis of the deposited data

How the results depend on the processing

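No paired analysis was possible because each group has 1 array. Centring on the housekeeping genes moved the members at 2-fold to 9 higher and 18 lower, the median of members to -0.24 and that of single-symbol probe sets to -0.37. Centring on the hybridisation controls gave 67 higher, 0 lower and medians of 0.44 and 0.31. These references differed by 0.37 (11 genes), -0.32 (18 probe sets) and, for the poly-A controls, 0.06 (24 probe sets), and which zero is right was not tested. At a threshold of 1.4, 9 members were higher and 0 lower. Keeping 1 probe set per set of symbols left 1 lower member, and requiring at least 2 symbols that are not gene models left 15 higher, as fewer probe sets were counted. The other scalings and filters kept the counts within 1.5 times and the medians within the SD between probe sets. Of 73 probe sets under the naming rule, 18 differed at least 2-fold and 0 of these changed sign under any scaling, and 26 of the other 55 did. Values near the array median have little signal over background, which limits the size of such differences.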
